A study of Homo sapiens with 3 samples.

Results

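RAS proteins are small GTPases at the inner face of the cell membrane that pass the signal of growth factor receptors on to the kinases RAF, MEK and ERK (the MAPK pathway). Active ERK is known to raise the transcription of a set of genes that includes its own brakes, the dual-specificity phosphatases (DUSP) and the Sprouty proteins (SPRY), and transcription factors of the PEA3 group of ETS factors (ETV). These feedback genes are widely read as a sign of ERK output, and in lung adenocarcinoma the pathway is often activated by mutation. The 9 genes described here are the RAS genes NRAS and HRAS and 7 ERK-responsive genes: the phosphatases DUSP4 and DUSP6, the inhibitors SPRY2 and SPRY4, the factors ETV4 and ETV5, and PHLDA1. They were chosen by name, with earlier results of these data known, out of 19262 coding genes in the deposited tables. All 9 were found there.

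Ribosome footprints (RFP), short pieces of RNA that a nuclease leaves intact inside ribosomes, were sequenced from 3 human lung cell lines grown under normal conditions in DMEM. H1299 and A549 are lines of non-small cell lung cancer, and HBE is a line of bronchial epithelial cells. A RAS gene is known to be mutated in each of the 2 cancer lines, in H1299 NRAS itself, and the tables do not separate alleles. Each line is a single cell line with 1 library, so a ratio compares 2 libraries, the spread between cultures is unknown, and the lines could not be tested against each other. The intervals given are exact 95% intervals that cover counting error only.

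The libraries held 35751992 mapped reads for H1299, 38268527 for A549 and 43580281 for HBE. Of these, 28478839, 31304697 and 34505579 lay on coding (NM) transcripts. Reads were summed per gene and expressed per 1000000 NM reads (RPM), so that 1 read stands for 0.0351 RPM in H1299, 0.0319 in A549 and 0.0290 in HBE. The labels of the lines were checked against marker genes. The 6 basal epithelial markers, such as KRT5 and KRT17, summed to 27.6 RPM in H1299, 71.1 in A549 and 1592 in HBE. The 4 targets of the oxidative stress factor NRF2, which is known to be active in A549, summed to 222 RPM in H1299, 5730 in A549 and 322 in HBE. The 4 mesenchymal markers summed to 1639 RPM in H1299, 976 in A549 and 51.0 in HBE. VIM led in both cancer lines, with 43694 reads in H1299 and 15327 in A549, but was lowest of the 4 in HBE with 124. FN1 had another order, with 918 reads in H1299, 13611 in A549 and 905 in HBE. The 7 leukocyte markers summed to 123 RPM in H1299, 111 in A549 and 66.1 in HBE. Of these reads 1827 in H1299, 1773 in A549 and 593 in HBE were of LYZ, lysozyme, which airway epithelium also makes, and the other 6 summed to 59.1 RPM in H1299, 54.7 in A549 and 48.9 in HBE. None of these leukocyte genes was at 0, and the lowest had 22 reads in H1299, 22 in A549 and 20 in HBE. What part such reads have in the values of the members was not tested.

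NRAS and HRAS moved apart between the lines: NRAS had most footprints in H1299 and HRAS had most in HBE. NRAS (NM_002524, minus strand of chromosome 1, 115247090 to 115259392 in GRCh37) had 1013 reads in H1299, 588 in A549 and 512 in HBE. HRAS (3 transcripts, minus strand of chromosome 11, 532242 to 537321) had 645 reads in H1299, 661 in A549 and 1167 in HBE. The 2 genes encode closely related GTPases, so it was asked first whether footprints can be told apart between them. Their coding sequences (GENCODE on GRCh37) have 567 nt each without the stop codon, and 414 of these bases (73.0%) are the same. Of the 153 differences, 111 fall on the third base of a codon. Every stretch of 28 nt, about the size of a footprint, holds at least 3 differences between the 2 genes, and the median stretch holds 6. The longest run without a difference has 14 nt.

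In H1299, NRAS had 35.6 RPM (95% interval 33.4 to 37.8), in A549 18.8 RPM (17.3 to 20.4) and in HBE 14.8 RPM (13.6 to 16.2). This is 2.40 times as much in H1299 as in HBE (2.15 to 2.67), 1.27 times as much in A549 as in HBE (1.12 to 1.43) and 1.89 times as much in H1299 as in A549 (1.71 to 2.10). In log2, NRAS was at 1.26 in H1299 against HBE, with the median gene at 0.38. In A549 against HBE it was at 0.34, with the median gene at 0.35. HRAS had 22.6 RPM in H1299 (20.9 to 24.5), 21.1 RPM in A549 (19.5 to 22.8) and 33.8 RPM in HBE (31.9 to 35.8). The intervals of the cancer lines overlapped for HRAS, with a ratio of 1.07 in H1299 against A549 (0.961 to 1.20). HRAS was 1.49 times lower in H1299 than in HBE (1.36 to 1.65) and 1.602 times lower in A549 than in HBE (1.45 to 1.76), below the fold of 2 required for a call. In log2 these are -0.58 and -0.68, with the median gene at 0.38 and 0.35. Within a library the scaling drops out, and NRAS had 1.57 reads per read of HRAS in H1299 (1.42 to 1.74), 0.890 in A549 (0.795 to 0.996) and 0.439 in HBE (0.395 to 0.487). The 2 coding regions are equally long, so these are also the ratios per coding length. Per length of the whole transcript, 4454 nt for NRAS against 1061 nt for HRAS, the ratios became 0.374 in H1299, 0.212 in A549 and 0.105 in HBE, so that NRAS was above HRAS in H1299 by coding length and below it by transcript length. The order of the lines, highest in H1299 and lowest in HBE, was the same with both lengths. Nearly all HRAS reads were assigned to NM_005343, with 99.4% in H1299, 98.6% in A549 and 98.5% in HBE, and NM_001130442 had 0 reads in each line, with exact upper limits of 0.570% in H1299, 0.557% in A549 and 0.316% in HBE.

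**Figure D1:**
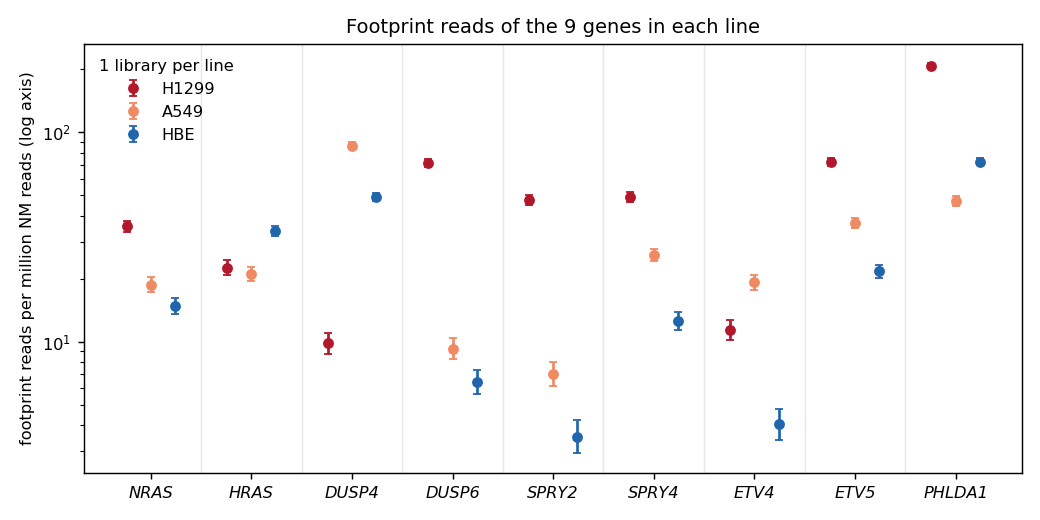
Footprint reads per 1000000 NM reads (RPM, log axis) of the 9 genes in H1299, A549 and HBE, with 1 library per line and bars for the exact 95% Poisson interval. H1299 is the highest line for 6 of the 9 genes, A549 for DUSP4 and ETV4, and HBE for HRAS alone.

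As a group, the members stood higher in H1299 than in HBE, except for HRAS and DUSP4. A gene was called when it had at least 20 reads over both libraries and the interval of its ratio lay wholly beyond 2. In H1299 against HBE, 7 of the 9 members were called higher and 1 lower, whereas of 18644 coding genes 8.05% were called higher and 4.93% lower. The median log2 ratio was 1.52 over the members and 0.38 over all coding genes. In A549 against HBE only ETV4 was called higher and no member lower, beside 6.15% and 3.36% of 18695 coding genes, and the median was 0.77 over the members and 0.35 over all genes. In H1299 against A549, 3 members were called higher and 1 lower, beside 4.10% and 4.83% of 18708 coding genes, with a median of 0.92 over the members and 0.02 over all genes. Since HBE takes part in 2 of these comparisons and H1299 in 2, they are not independent. The members had also been chosen with earlier results of these data known.

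The scaling bears on these counts, because the median gene did not lie at 0 against HBE. The 12 NM transcripts that were among the 10 most read of any library took 39.5% of the NM reads in HBE but 32.1% in H1299 and 32.6% in A549. With TMM factors the median gene was at 0.01 against HBE in both cancer lines, and 34.6% of the calls over all genes in H1299 against HBE were in the higher direction, in place of 62.0%, and in A549 against HBE 37.4% in place of 64.6%. With upper quartile factors these shares were 49.7% and 49.0%, and without the most read transcripts 49.4% and 52.7%. Under TMM 5 members remained called higher in H1299 against HBE, namely DUSP6, SPRY2, SPRY4, ETV5 and PHLDA1. NRAS lost the call under TMM (log2 ratio 0.90), upper quartile factors (1.10) and NM reads without the most read transcripts (1.09), and ETV4 under TMM alone (1.13). The called members of the other 2 comparisons were the same under each of the 4 other scalings.

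**Figure D2:**
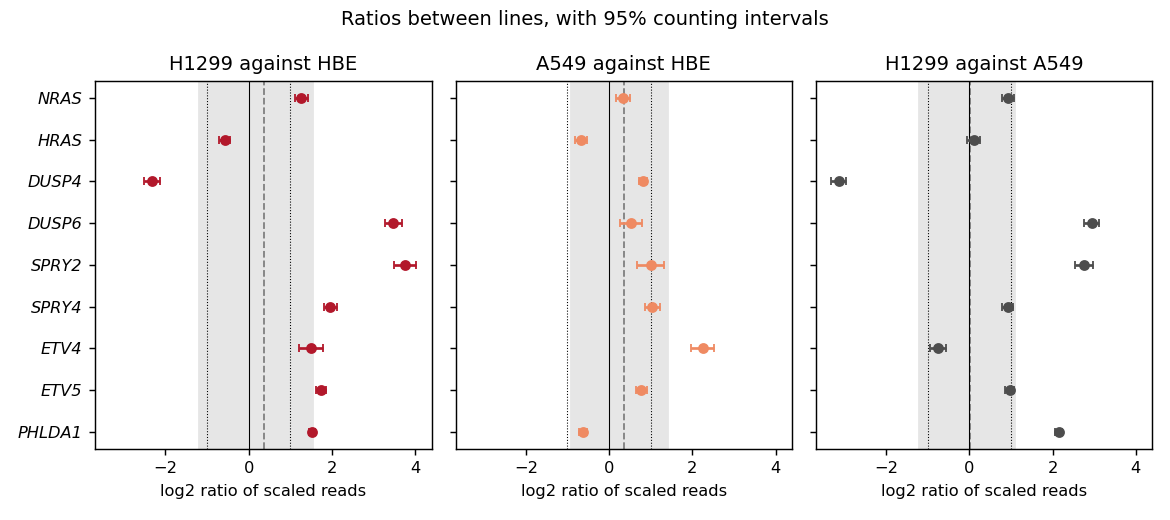
Log2 ratio of scaled reads for each gene in the 3 pairs of lines, with bars for the exact 95% counting interval, a grey band for the middle 90% of coding genes, a dashed line for the median coding gene and dotted lines at a ratio of 2. DUSP6 and SPRY2 lie far to the right and DUSP4 far to the left in both H1299 panels, while in A549 against HBE ETV4 alone lies outside the band on the right.

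The phosphatases gave opposite pictures. DUSP6, a cytoplasmic phosphatase that acts mainly on ERK, had 2035 reads in H1299, 291 in A549 and 223 in HBE. These are 71.5 RPM in H1299 (95% interval 68.4 to 74.6), 9.30 RPM in A549 (8.26 to 10.4) and 6.46 RPM in HBE (5.64 to 7.37). H1299 thus stood well above both other lines, whose intervals did not overlap but lay close together. DUSP6 was 11.1 times higher in H1299 than in HBE (9.62 to 12.8) and 7.69 times higher in H1299 than in A549 (6.80 to 8.72), and only 96 and 68 of the coding genes tested had a higher ratio. In A549 against HBE it had a ratio of 1.44 (1.20 to 1.72), or a log2 ratio of 0.52, with the median gene at 0.35. DUSP6 lies on the minus strand of chromosome 12 (GENCODE gene 89741012 to 89746278), and its reads were all assigned to NM_001946 but for 1 read in A549.

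DUSP4, a nuclear phosphatase of ERK and other MAP kinases, was lowest where DUSP6 was highest. It had 280 reads in H1299, 2709 in A549 and 1696 in HBE, or 9.83 RPM (95% interval 8.71 to 11.1), 86.5 RPM (83.3 to 89.9) and 49.2 RPM (46.8 to 51.5). DUSP4 was 4.999 times lower in H1299 than in HBE (4.40 to 5.69) and 8.80 times lower in H1299 than in A549 (7.78 to 9.99), where only 351 and 135 of the coding genes tested had a lower ratio. In A549 against HBE the ratio was 1.76 (1.66 to 1.87). Per kilobase of coding sequence, DUSP6 stood 7.52 times above DUSP4 in H1299 (6.63 to 8.55), but 9.002 times below it in A549 (7.97 to 10.2) and 7.35 times below it in HBE (6.39 to 8.49). The order of the 2 phosphatases was the same per length of the transcript.

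The reads of DUSP4 were split between 2 transcripts, and the lower level in H1299 lay mostly in the shorter one. NM_001394 (5625 nt) had 210 reads in H1299, 2603 in A549 and 1617 in HBE. NM_057158 (6440 nt) had 70 reads in H1299, 106 in A549 and 79 in HBE. The longer transcript therefore held 25.0% of the DUSP4 reads in H1299 (95% interval 20.04 to 30.5), 3.91% in A549 (3.21 to 4.71) and 4.66% in HBE (3.70 to 5.77). In H1299 against HBE, NM_001394 was at a ratio of 0.157 (0.136 to 0.182) and NM_057158 at 1.07 (0.767 to 1.5001). In H1299 against A549 the ratios were 0.0887 (0.0767 to 0.102) and 0.726 (0.529 to 0.991). The 2 transcripts share much of their sequence, and which of them received a shared read was decided by the mapping. The deposited RPKM of NM_057158, scaled to all mapped reads, was 0.304 in H1299, 0.430 in A549 and 0.281 in HBE. The olfactory receptor genes used below as a background had medians of 0.811, 0.845 and 0.583 RPM per kilobase of transcript. NM reads, the total behind those medians, were 79.7%, 81.8% and 79.2% of mapped reads. What part background has in the reads of NM_057158, and so in its share and ratios, was not tested.

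**Figure D3:**
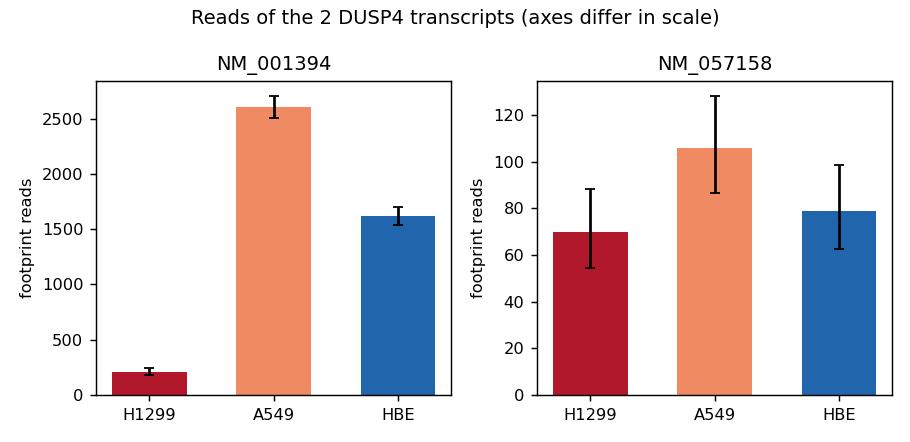
Footprint reads of the DUSP4 transcripts NM_001394 and NM_057158 in H1299, A549 and HBE, as bars from 0 with the exact 95% Poisson interval and a different scale in each panel. NM_001394 has 210 reads in H1299 against 2603 in A549 and 1617 in HBE, whereas NM_057158 has 70, 106 and 79.

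Both Sprouty genes, whose products inhibit the signal between receptor tyrosine kinases and ERK, were highest in H1299. SPRY2 (minus strand of chromosome 13, 80910111 to 80915261) had 1356 reads in H1299, 221 in A549 and 122 in HBE, or 47.6 RPM (95% interval 45.1 to 50.2), 7.06 RPM (6.16 to 8.05) and 3.54 RPM (2.94 to 4.22). It was 13.5 times higher in H1299 than in HBE (11.2 to 16.3) and 6.74 times higher in H1299 than in A549 (5.85 to 7.81). Its ratio in H1299 against HBE was the highest among the members, with 77 coding genes above it. In A549 against HBE the ratio was 1.997 (1.59 to 2.51). SPRY4 (minus strand of chromosome 5, 141689992 to 141706020) had 1400 reads in H1299, 813 in A549 and 435 in HBE. The ratio was 3.90 in H1299 against HBE (3.50 to 4.35), 2.06 in A549 against HBE (1.83 to 2.32) and 1.89 in H1299 against A549 (1.73 to 2.07). The lines had the same order for both genes, and none of the intervals of the levels overlapped. Per kilobase of coding sequence, SPRY4 exceeded SPRY2 3.88 times in A549 (3.34 to 4.52) and 3.76 times in HBE (3.07 to 4.63), while in H1299 the ratio was 1.09 (1.01 to 1.17). Per kilobase of transcript the ratio of SPRY4 to SPRY2 was 0.444 in H1299, 1.58 in A549 and 1.53 in HBE, so that in H1299 the order turned with the length used.

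The 2 PEA3 factors peaked in different cancer lines. ETV5 (minus strand of chromosome 3, 185764103 to 185828107) had 2059 reads in H1299, 1159 in A549 and 749 in HBE. It was 3.33 times higher in H1299 than in HBE (95% interval 3.06 to 3.63), 1.71 times in A549 against HBE (1.55 to 1.87) and 1.95 times in H1299 against A549 (1.82 to 2.10). ETV4 (minus strand of chromosome 17, 41605212 to 41656988) had 325 reads in H1299, 603 in A549 and 140 in HBE, or 11.4, 19.3 and 4.06 RPM. It was 2.81 times higher in H1299 than in HBE (2.30 to 3.45) and 4.75 times higher in A549 than in HBE (3.94 to 5.75), and in H1299 against A549 the ratio was 0.592 (0.516 to 0.679). Hence ETV4 was the member with the highest ratio in A549 against HBE, where 266 coding genes lay above it. The reads of ETV4 went to 5 transcripts, of which NM_001261437 held 87.4% in H1299, 91.0% in A549 and 74.3% in HBE. NM_001261439, the shortest at 1613 nt, held 4% in H1299 (2.15 to 6.74), 3.65% in A549 (2.30 to 5.47) and 21.4% in HBE (14.9 to 29.2), which in HBE are 30 reads. Of ETV5, 3.55% of the stretches of 28 nt also occur in transcripts of other genes, chiefly of DGKG, which overlaps it on the same strand.

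PHLDA1 (minus strand of chromosome 12, 76419227 to 76425556), a protein with a pleckstrin homology-like domain that is induced by growth factors, had the most reads of the 9 genes in H1299 and HBE. It had 5920 reads in H1299, 1471 in A549 and 2500 in HBE, or 208 RPM (95% interval 203 to 213), 47.0 RPM (44.6 to 49.5) and 72.5 RPM (69.6 to 75.3). PHLDA1 was 2.87 times higher in H1299 than in HBE (2.74 to 3.01) and 4.42 times higher in H1299 than in A549 (4.18 to 4.69), but 1.54 times lower in A549 than in HBE (1.45 to 1.65). Apart from HRAS, it was the only member below HBE in A549. Of its stretches of 28 nt, 3.52% also occur in transcripts of other genes, so that part of its reads could have been placed elsewhere or taken from there.

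**Figure D4:**
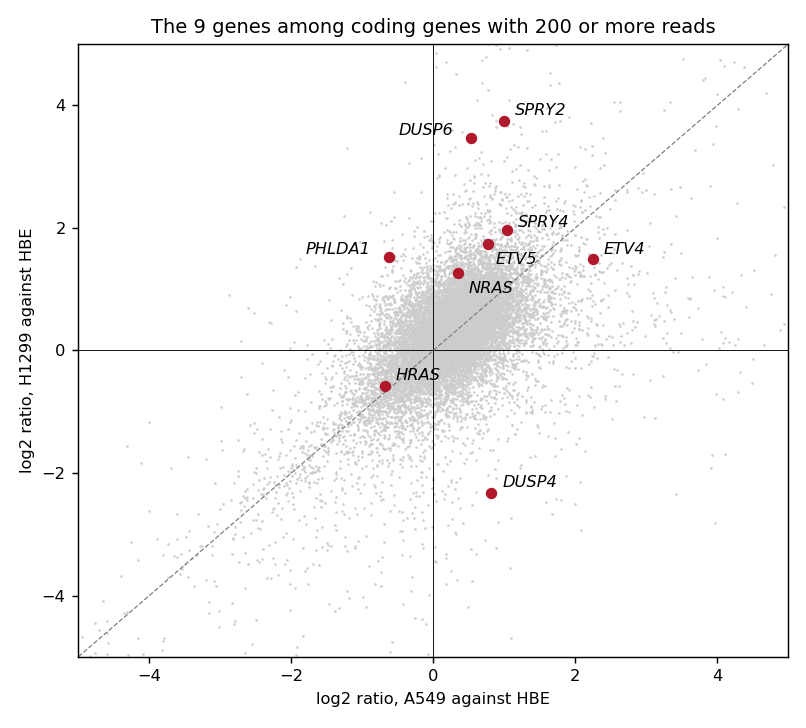
Log2 ratio of A549 against HBE (x axis) and of H1299 against HBE (y axis) for the 9 genes in red and, in grey, for coding genes with 200 or more reads over the 3 libraries, with a dashed line where both ratios are equal and axes that end at -5 and 5. DUSP6 and SPRY2 lie close together high above the line, DUSP4 lies far below it, and ETV4 is shifted to the right.

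When levels were compared between genes, they were taken per length. Per kilobase of transcript (RPM per kilobase), PHLDA1 led in H1299 with 35.2, HRAS in A549 with 19.9 and HRAS in HBE with 31.9, and DUSP4 in H1299 with 1.75, DUSP6 in A549 with 2.74 and SPRY2 in HBE with 1.66 came last. On this scale genes with long untranslated ends, which ribosomes rarely cover, stand low. Per kilobase of coding sequence, in the same unit, PHLDA1 led in H1299 with 173, followed by NRAS with 62.7, DUSP6 with 62.5, SPRY4 with 54.8, SPRY2 with 50.4, ETV5 with 47.3 and HRAS with 39.9. DUSP4 with 8.32 and ETV4 with 7.86 came last in H1299. Of these neighbours, NRAS and DUSP6, SPRY2 and ETV5, and DUSP4 and ETV4 did not differ beyond counting error. In A549 the order was DUSP4 with 73.2, PHLDA1 with 39.1, HRAS with 37.2, NRAS with 33.1, SPRY4 with 29.0, ETV5 with 24.2 and ETV4 with 13.3, and DUSP6 with 8.13 and SPRY2 with 7.47 came last. PHLDA1 and HRAS, and DUSP6 and SPRY2, were not separated in A549. In HBE, PHLDA1 with 60.2 and HRAS with 59.6 led, followed by DUSP4 with 41.6, NRAS with 26.2, ETV5 with 14.2 and SPRY4 with 14.1. DUSP6 with 5.65, SPRY2 with 3.74 and ETV4 with 2.79 were lowest in HBE. PHLDA1 and HRAS, and likewise ETV5 and SPRY4, could not be separated in HBE at this depth.

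Per kilobase of transcript, several of these levels lay within the upper range of genes which the cells are not known to use. The 377 olfactory receptor genes, chosen as a background after the values had been seen, had a median of 23 reads in H1299, 27 in A549 and 20 in HBE. Their median was 0.811 RPM per kilobase of transcript in H1299, 0.845 in A549 and 0.583 in HBE. Every member, with the reads of its transcripts summed, lay above it. Their 95th percentile was 6.15 RPM per kilobase of transcript in H1299, 6.13 in A549 and 4.24 in HBE. On this scale 5 members lay below it in HBE (NRAS at 3.33, DUSP6 at 1.90, SPRY2 at 1.66, SPRY4 at 2.55 and ETV4 at 1.72). In A549 4 members did (NRAS at 4.22, DUSP6 at 2.74, SPRY2 at 3.32 and SPRY4 at 5.26), and in H1299 DUSP4 at 1.75 and ETV4 at 4.84. DUSP6 at 21.05 and SPRY2 at 22.4 in H1299 stood 3.42 and 3.64 times above the percentile. Members with long untranslated ends, such as NRAS and SPRY4, stand low on this scale, and the percentile was not taken per coding length. What part such background has in the low values, and so in the ratios, was not tested.

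To see how particular these patterns are, each member was compared with 16010 coding genes of at least 200 reads, by the distance between their log2 ratios of A549 and of H1299 against HBE. DUSP6 and SPRY2 were each other's nearest member, at a distance of 0.55, and 16 genes lay nearer to DUSP6 and 13 nearer to SPRY2 than that. SPRY4 and ETV5 were each other's nearest member at 0.35, with 145 and 262 genes nearer. For NRAS, whose nearest member was ETV5, 2855 genes were nearer. The genes most like DUSP6 were ZNF625, at a distance of 0.15 with 239 reads in H1299, 29 in A549 and 24 in HBE, and STAG3, at 0.25 with 1582, 215 and 191 reads. MAGEA10 was most like SPRY2, at 0.09 with 748 reads in H1299, 132 in A549 and 71 in HBE. The nearest gene to DUSP4, KRT83, lay at 0.22 with 20 reads in H1299, 169 in A549 and 123 in HBE, and SMOX at 0.28 with 135 reads in H1299, 1039 in A549 and 675 in HBE. TTK was close to NRAS at 0.02 with 3963, 2324 and 2027 reads, CDK5 was close to HRAS at 0.02 with 459, 479 and 836 reads, and WWTR1 was most like ETV4 at 0.02 with 1404, 2611 and 600 reads. These are likenesses over 2 ratios from 3 libraries.

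The families of the feedback genes did not move as one. Of all coding genes, 8.05% were called higher and 4.93% lower in H1299 against HBE. In A549 against HBE these shares were 6.15% and 3.36%, and in H1299 against A549 4.10% and 4.83%. Of the 8 other MAP kinase phosphatases, DUSP5, an ERK phosphatase of the nucleus, was called higher in H1299 (829 reads) and in A549 (781 reads) against HBE (252 reads), by 3.99 times (95% interval 3.46 to 4.61) and 3.42 times (2.96 to 3.95). DUSP1, a nuclear phosphatase induced by mitogens and stress, was called lower in H1299, with 310 reads, than in A549 with 1190 and HBE with 1936, by 3.49 and 5.15 times. The other 6 were called in none of the 3 comparisons, although TMM factors added DUSP16 as lower in H1299 and DUSP7 as lower in A549, each against HBE. Of the 5 other Sprouty and SPRED genes, SPRED3 was called higher in H1299 against HBE (4.24 times, 3.33 to 5.45, with 301 reads against 86), and SPRY1, SPRY3, SPRED1 and SPRED2 in no comparison. The median of the 5 genes (log2) was 0.87 for H1299 against HBE and 0.77 for A549 against HBE, beside 0.38 and 0.35 for all genes. Under TMM their median in H1299 against HBE was 0.51, beside 0.01 for all genes. ETV1, the third PEA3 factor, had 930 reads in H1299, 291 in A549 and 138 in HBE, and was called higher in H1299 against HBE (8.17 times, 6.82 to 9.84) and against A549 (3.51 times, 3.08 to 4.02). PHLDA3 had 142 reads in H1299, 609 in A549 and 720 in HBE, and was called lower in H1299 than in HBE (4.18 times, 3.49 to 5.05) and than in A549 (3.90 times, 3.25 to 4.72), where PHLDA1 was called higher. Its ratio in A549 against HBE was 0.932 (0.836 to 1.04). PHLDA2 was called in no comparison.

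Upstream of ERK, 51 genes of 4 lists were counted, NRAS and HRAS among them. In H1299 against HBE 7.84% of them were called higher and 1.96% lower, beside 8.05% and 4.93% of all coding genes, and in A549 against HBE 3.92% and 0%, beside 6.15% and 3.36%. Of 14 RAS family GTPases, NRAS and RRAS were called higher in H1299 against HBE and RRAS in A549 against HBE, with medians of 0.19 and -0.03. RRAS had 783 reads in H1299, 1060 in A549 and 344 in HBE, and its call in H1299 was lost under TMM. Of 14 activators and adaptors of RAS, such as SOS1 and GRB2, none was called in any comparison, and the medians of 0.39 in H1299 and 0.39 in A549 against HBE lay beside 0.38 and 0.35 for all genes. Of 14 genes of the RAF-MEK-ERK cascade and its scaffolds, KSR1, a scaffold of RAF and MEK, was called lower in H1299 (226 reads) than in A549 (635 reads) and HBE (898 reads), and PEA15, which holds ERK in the cytoplasm, was called higher in H1299 against A549 (2.40 times, 95% interval 2.22 to 2.60). MAP2K1, which encodes a MEK kinase, had 1565 reads in H1299, 1490 in A549 and 3173 in HBE, and was called lower against HBE only under other scalings, in H1299 under TMM and in A549 under all but that by all mapped reads. Among 9 GTPase-activating proteins, which switch RAS off, RASA1 had 11950 reads in H1299, 1885 in A549 and 4269 in HBE, and was 3.39 times higher in H1299 than in HBE (3.27 to 3.51). In A549 against HBE, RASA1 was called lower only under TMM, upper quartile factors and without the most read transcripts. RASA3 had 1015, 432 and 174 reads and was called higher in all 3 comparisons, but not in A549 against HBE under TMM or upper quartile factors. NF1 had 1395 reads in H1299, 3059 in A549 and 3213 in HBE, a ratio of 0.526 in H1299 against HBE (0.494 to 0.560) that did not pass the rule, but did as lower under TMM and without the most read transcripts.

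**Figure D5:**
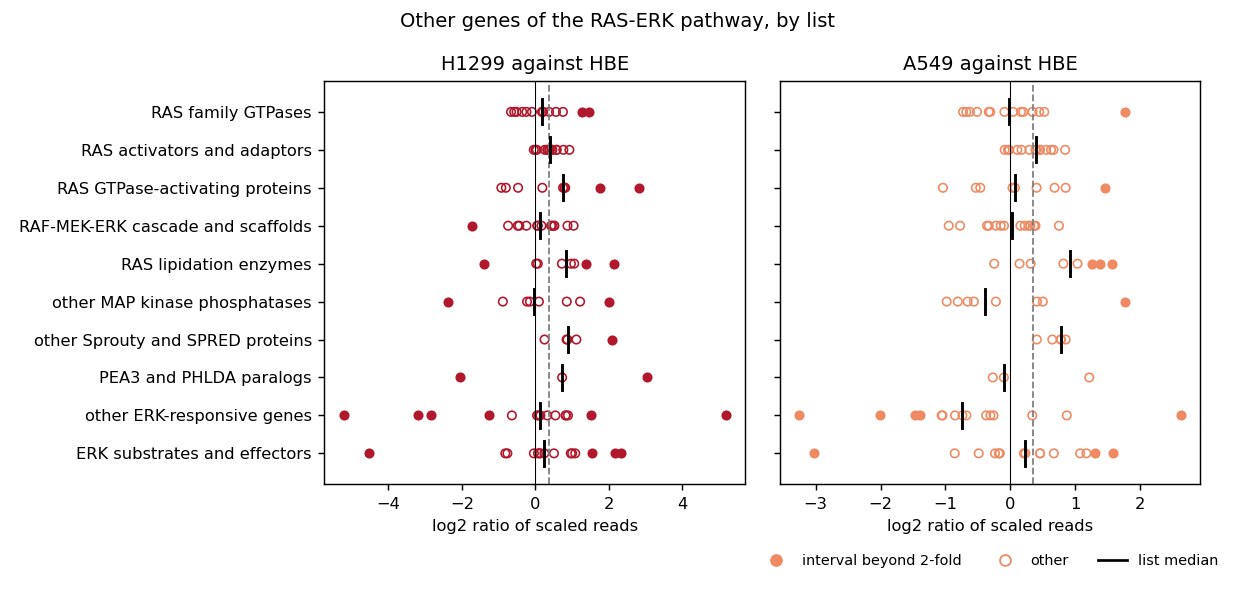
Log2 ratio of each gene of 10 lists of the RAS-ERK pathway in H1299 against HBE and A549 against HBE, with filled circles for genes whose counting interval lies wholly beyond 2, open circles for the others, a black bar for the median of the list and a dashed line for the median coding gene. The first list includes NRAS and HRAS, activators and adaptors hold no filled circle, and the ERK-responsive genes spread widely to both sides.

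The 15 other genes known to respond to ERK went in both directions. In H1299 against HBE 2 were called higher and 4 lower, in A549 against HBE 1 and 4, and in H1299 against A549 7 and 3, with medians of 0.14, -0.74 and 0.77. Over all coding genes these shares were 8.05% and 4.93%, 6.15% and 3.36%, and 4.10% and 4.83%, with medians of 0.38, 0.35 and 0.02. FOS lost its lower call in H1299 against HBE when scaled to all mapped reads. Under TMM, FOS, MYC and IER2 were added as lower in A549 against HBE. FOSL1, an AP-1 subunit whose level follows ERK activity, had 4334 reads in H1299, 165 in A549 and 144 in HBE, which after scaling is 36.5 times more in H1299 than in HBE (95% interval 30.9 to 43.4). Thus FOSL1 stood far higher in H1299 than in both other lines, as DUSP6 and SPRY2 did. In A549 against HBE its ratio was 1.26 (1.004 to 1.59), or 0.34 in log2, with the median gene at 0.35. AREG, a ligand of the EGF receptor, had 31 reads in H1299, 771 in A549 and 1419 in HBE, which after scaling is 37.8 times less in H1299 than in HBE (26.5 to 55.8). EREG, another such ligand, was highest in A549, with 77 reads in H1299, 480 in A549 and 85 in HBE. JUNB, an AP-1 subunit of the immediate early response, had 643 reads in H1299 and 675 in A549, against 7121 in HBE. IER3, an immediate early gene, had 193 reads in H1299, 583 in A549 and 1682 in HBE. EGR1, an immediate early zinc finger factor, had 434, 97 and 298 reads, and was called lower in A549 against HBE (2.79 times, 2.21 to 3.54) and higher in H1299 against A549 (4.92 times, 3.94 to 6.19). Over the 103 list genes that are not members, 12.6% were called higher and 8.74% lower in H1299 against HBE, beside the 8.05% and 4.93% of all coding genes given above. In A549 against HBE these shares were 8.74% and 4.85%, and in H1299 against A549 11.65% and 6.80%.

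Finally, the promoters of the members were searched on both strands for motifs of factors at the end of the pathway. The RefSeq promoters (GRCh38.p14, 250 bases before to 50 after the start) held 6 of the members, namely NRAS, HRAS, DUSP6, SPRY2 with 3 starts, SPRY4 and PHLDA1. The ETS motif CCGGAAGT was found in 1 of the 6, NRAS, from base 4 after the start, and in 4.14% of all 35116 promoters. The AP-1 motif TGANTCA (7.71% of all promoters), the CRE motif TGACGTCA (1.85%) and the CArG box of SRF (1.29%) were found in none of the 6. The shorter ETS core CGGAAG, which overlaps the first motif and was added after these results were seen, was found in NRAS, HRAS, DUSP6 and PHLDA1, and in 19.5% of all promoters. The bases around it are shown for DUSP6 and PHLDA1, the feedback genes with a match, and for HRAS, which was not called higher, with the motif in capitals and on the strand of the gene. In DUSP6 it lies on the opposite strand, so that its reverse complement stands in capitals. The windows are chr12:89352531-89352590 for DUSP6, chr12:76031791-76031850 for PHLDA1 and chr11:535676-535735 for HRAS, all on the minus strand of GRCh38.
DUSP6: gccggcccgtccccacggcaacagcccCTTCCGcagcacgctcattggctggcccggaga
PHLDA1: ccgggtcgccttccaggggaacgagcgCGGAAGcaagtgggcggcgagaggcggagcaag
HRAS: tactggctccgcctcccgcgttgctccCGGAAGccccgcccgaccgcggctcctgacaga

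The match begins 62 bases before the start in DUSP6, 47 in PHLDA1 and 132 in HRAS.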

How the data were processed

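Ribosome footprints of 3 lines were analysed, with 1 library each. According to the paper's methods and the labels, rRNA was depleted with a Ribo-Zero kit and with biotinylated probes, small RNA libraries were made, and the authors trimmed the reads and mapped them to RefSeq RNA sequences with FANSe2, whose version was not found in the text or labels. The submitters' processing notes name hg19. The deposited read count per transcript is a whole number that the authors did not normalize, and the deposited RPKM was computed by the authors from that count, the whole transcript length and all reads. RPKM was not used for ratios.

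Counts were summed over all rows of a gene's name and divided by the reads on NM rows. The 329 rows without a name held at most 0.00350% of the NM reads. Log2 ratios had 0.5 read added. Intervals of ratios were conditional binomial (Clopper-Pearson) and those of levels Poisson, from scipy 1.17.1. Calls across all coding genes required 20 reads over both libraries and an interval wholly beyond 2. This rule was tested on simulated data with known folds and counting error only. That test does not bear on the spread between cultures or on the scaling. edgeR 4.0.16 gave TMM and upper quartile factors only, and no p-value was computed. Gene positions and coding lengths came from the GENCODE annotation on GRCh37. Genes were named by rule: all members, the families of the feedback genes, the called genes with the largest ratios and examples by read count from the other lists, and the 3 genes nearest to each member, of which some are given.

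Members, lists and rules were chosen with earlier results of these data known. Coding length was used in place of protein length after the files had been seen. Alternatives were 4 other scalings, NM rows only, 5 added reads, folds of 1.5 and 4, and minimums of 0 and 50 reads.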

Additional observations from a re-analysis of the deposited data

Results flagged for a closer look

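DUSP4 and PHLDA1 moved in opposite directions in the 2 cancer lines against HBE. The log2 ratio of DUSP4 was -2.32 in H1299 against HBE and 0.82 in A549 against HBE. That of PHLDA1 was 1.52 in H1299 against HBE and -0.62 in A549 against HBE. In all 4 the counting interval of the ratio excluded 1, and with TMM factors the values were -2.68 and 0.48 for DUSP4 and 1.16 and -0.96 for PHLDA1. With 1 library per line, the difference between the lines was not tested.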

How the results depend on the processing

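No paired analysis was possible because 1 library per line leaves nothing to pair. The ratio per length of NRAS to HRAS (log2) was 0.65 in H1299, -0.17 in A549 and -1.19 in HBE with the coding length, chosen after the data were seen, in place of -1.42, -2.24 and -3.26 with the transcript length; the coding regions are equally long and the transcripts are not. With the interval required beyond 4, 2 members were called higher in H1299 against HBE, and 0 in A549 against HBE. With 1.5, 6 were called higher in H1299 against A549, and for A549 against HBE there were 5. The shares of all coding genes called at folds of 1.5 and 4 were not computed. These member counts therefore cannot be set against the shares given for a fold of 2. Under TMM, 4.19% of coding genes were called higher and 7.94% lower in H1299 against HBE, and 3.39% and 5.69% in A549 against HBE. Of 162 log2 ratios of members under other settings, 124 stayed inside their counting interval, 38 moved out of it and no called one changed sign; NRAS in A549 against HBE, which was not called, changed sign under TMM, to -7.5e-05. All 54 values with NM rows only or with 5 reads added stayed inside. List medians moved by 0.1 or more in 60 of 120 cases and list counts by over 1.5 times in 27 of 240. Depth limits the members with fewest reads, SPRY2 with 122 and ETV4 with 140 in HBE.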

Other observations

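Of 8 genes that process or carry the lipid anchor of RAS, 2 were called higher and 1 lower in H1299 against HBE, beside 8.05% and 4.93% of all coding genes. In A549 against HBE 3 were called higher and none lower, beside 6.15% and 3.36%. The medians were 0.84 and 0.92 (log2), with FNTB, ZDHHC9 and RCE1 below the median gene in both lines, and under TMM 1 higher call was left in each line. LYPLA1, a thioesterase that removes palmitate from proteins, had 989 reads in H1299, 642 in A549 and 273 in HBE. ICMT, the methyltransferase of prenylated proteins, was called higher in both cancer lines against HBE, and GOLGA7, a partner of the palmitoyltransferase ZDHHC9, in A549 against HBE. The call of ICMT was lost under TMM in H1299. In A549 that of ICMT was lost under TMM, upper quartile factors and without the most read transcripts, and that of LYPLA1 under TMM and upper quartile factors. RCE1, the protease of the same pathway, had 85 reads in H1299, 209 in A549 and 274 in HBE, and was called lower in H1299 against HBE (2.66 times, 95% interval 2.08 to 3.43).

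Of 15 substrates and effectors of ERK, 3 were called higher and 1 lower in H1299 against HBE, beside 8.05% and 4.93% of all coding genes. In A549 against HBE 2 were called higher and 1 lower, beside 6.15% and 3.36%. The ETS factors among them went different ways. ETS1 had 2207 reads in H1299, 737 in A549 and 592 in HBE, which after scaling is 4.52 times more in H1299 than in HBE (95% interval 4.12 to 4.95). ETS2 had 324 reads in H1299, 1005 in A549 and 8996 in HBE, which after scaling is 22.9 times less in H1299 (20.5 to 25.7) and 8.12 times less in A549 (7.61 to 8.68) than in HBE. ELK3, a partner of SRF, had 551, 270 and 132 reads and was called higher in H1299 against HBE. ERF had 1164 reads in H1299, 1093 in A549 and 488 in HBE, and was called higher in both cancer lines against HBE. Its call in A549 was lost under TMM, upper quartile factors and without the most read transcripts.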
